A study of Mus musculus with 294 samples.

Results

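The S phase and DNA replication genes are 40 genes that mark cells copying their DNA, and all 40 were found among the 15124 genes of the deposited count table. They were matched by gene symbol from a list, and that rule uses no measured level. They were grouped by 6 roles: helicase loading and origin firing (8 genes), DNA synthesis at the fork (10), deoxynucleotide supply (3), chromatin and histone supply (10), DNA repair (6) and cell cycle control (3).

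In each cell cycle the genome is copied once. Before S phase, the MCM helicase is loaded onto replication origins, and in S phase Cdc45 and GINS switch it on, polymerases copy the unwound strands around the sliding clamp PCNA, and new histones pack the copied DNA. Many of these genes are transcribed under the E2F factors as a cell leaves G1, so their transcripts rise before and during S phase and fall again before division. In the embryonic outflow tract, neural crest cells divide while they settle in the cushions and septum and take on mesenchymal, smooth muscle or glial fates.

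RNA was sequenced from 294 single cells of the mouse heart, each a library of its own. The cells came from Wnt1-Cre; R26-EYFP embryos, were dissected around the aorticopulmonary septum and were sorted for EYFP. All 294 carry the same genotype, with no treatment named, and they form 1 group that counts as 1 sample, because the labels name no animal or chip for a cell and pool embryos of E11.5, E12.5 and E17.5 and of E14.5 without saying which cell is which age. EYFP marks cells whose ancestors expressed Wnt1-Cre, so it follows the lineage and the activity of this driver, and not a present cell state. The capture chip took cells of medium size only, and cells were kept after imaging and a cDNA quality check. Wnt1 itself reached 10 CPM in 3 cells and Pax3, another early neural crest gene, in 1 cell, while the collagen gene Col3a1 did so in 99.7% of the cells.

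CPM is a gene's reads for every 1000000 reads of the cell, and a gene was called found in a cell at 10 CPM or more. Totals ran from 34046 to 3033857 reads per cell, with a median of 1204543. The only split of the cells that their names allow is the first digit, 1 to 7, called the name series here. Its meaning is not given, so the series are no groups of the study. Series 1 stood apart: its 58 cells had a median of 7718 genes with a read, against 4009.5 in the other series, and results are given with and without it. Since there is 1 sample, no test was run. Shares carry exact Clopper-Pearson 95% intervals. These cover the error of counting cells and no other, and the labels name no tags that would tell copies of 1 molecule apart.

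Some promoters of these genes are shown first, because a shared E2F-type site is the sequence feature the genes are known for. RefSeq promoters (GRCm38.p6) were at hand for 30 of the 40 genes. Of these, 17 (56.7%) held an E2F-type motif on either strand in the 250 bases before the start, against 2435 of 27025 genes in the promoter table (9.01%). The motif was searched as TTGGCGC or as TTCCCGC or as TTCGCGC or as TTGCCGC, and neighbouring hits can overlap. A second list of 89 other replication genes held it in 25 of 75 promoters (33.3%), and a list of G2 and mitosis genes in 10 of 46 (21.7%). The CCAAT box stood in 21 of 30 promoters (70%), against 37.5% of the table. A CHR element, TTTGAA or TTCGAA, which is known from mitosis genes, stood in 6 of 30 (20%), against 22 of 46 mitosis genes (47.8%) and 19.6% of the table. A match is a description of the letters and not a bound site. The sequences below are upstream bases only, ending before the annotated start, with the E2F-type motif in capitals (in Rrm2 it reads on the opposite strand). Uhrf1, Rrm2, Dtl and Rrm1 are those of the genes with the motif that followed the other S phase genes most closely across cells, and Clspn followed them most closely of all and lacks it. They lie at chr17:56303087-56303320 (+) for Uhrf1, chr12:24708004-24708240 (+) for Rrm2, chr1:191575545-191575794 (-) for Dtl, chr7:102441445-102441694 (+) for Rrm1 and chr4:126556730-126556934 (+) for Clspn.
Uhrf1: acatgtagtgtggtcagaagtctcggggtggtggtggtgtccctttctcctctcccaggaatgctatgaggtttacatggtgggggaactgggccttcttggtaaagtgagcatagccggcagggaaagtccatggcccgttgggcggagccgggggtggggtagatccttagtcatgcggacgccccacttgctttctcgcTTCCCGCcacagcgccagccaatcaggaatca
Rrm2: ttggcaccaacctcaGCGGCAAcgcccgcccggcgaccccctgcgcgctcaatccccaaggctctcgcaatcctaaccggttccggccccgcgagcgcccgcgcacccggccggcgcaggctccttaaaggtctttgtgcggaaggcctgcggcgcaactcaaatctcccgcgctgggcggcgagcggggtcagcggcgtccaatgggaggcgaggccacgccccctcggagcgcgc
Dtl: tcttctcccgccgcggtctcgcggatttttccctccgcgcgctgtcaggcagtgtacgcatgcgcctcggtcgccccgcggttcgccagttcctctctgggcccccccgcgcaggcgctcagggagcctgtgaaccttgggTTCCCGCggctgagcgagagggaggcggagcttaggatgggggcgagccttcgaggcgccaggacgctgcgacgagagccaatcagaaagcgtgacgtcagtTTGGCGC
Rrm1: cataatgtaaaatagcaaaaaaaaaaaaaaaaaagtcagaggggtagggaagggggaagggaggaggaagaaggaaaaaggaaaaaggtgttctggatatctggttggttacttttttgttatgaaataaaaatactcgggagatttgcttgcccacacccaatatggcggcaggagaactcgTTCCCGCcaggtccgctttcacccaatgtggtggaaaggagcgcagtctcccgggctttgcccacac
Clspn: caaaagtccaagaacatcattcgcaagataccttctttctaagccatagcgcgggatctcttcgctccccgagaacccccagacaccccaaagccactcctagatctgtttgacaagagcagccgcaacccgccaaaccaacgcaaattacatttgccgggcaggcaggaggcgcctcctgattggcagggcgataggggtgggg
The motif began 48 bases before the RefSeq start in Uhrf1, 235 bases before it in Rrm2 and 67 bases before it in Rrm1. Dtl holds 2 motifs, 109 and 7 bases before the start. Rfc2, Atad2, Ccne2, Dscc1, Gins2, Usp1, Tipin, Exo1, Gmnn and Mcm4 were not among the matched promoters.

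Cells differed widely in how many S phase genes they held. A cell had from 0 to 37 of the 40 genes, with a median of 8. Most cells held few: 228 of 294 had fewer than 20 of them, with a median of 6, while 66 had 20 or more, with a median of 27. The latter are called S-gene-rich, and made up 22.4% of the cells (17.8 to 27.7%), or 20.8% (15.8 to 26.5%) without series 1. The class is a range and not a cell type, and 7 cells lay just under the line with 18 or 19 genes and 12 just over it with 20 or 21. An S-gene-rich cell is one with these transcripts, and DNA synthesis was not measured.

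S-gene-rich cells occurred in every name series. There were 17 of 58 in series 1, 12 of 48 in series 2, 5 of 38 in series 3, 8 of 38 in series 4, 9 of 34 in series 5, 4 of 34 in series 6 and 11 of 44 in series 7. The shares ran from 11.8% (3.3 to 27.4%) in series 6 to 29.3% (18.1 to 42.7%) in series 1, and the intervals of all 7 series overlapped. The mean of log2(CPM + 1) over the 40 genes, the S score, had a median of 1.70 over all cells (1.48 to 1.91). Its series medians were 2.64, 1.35, 1.02, 1.55, 1.4, 1.26 and 1.45 for series 1 to 7, so series 1 was highest and series 3 lowest, and without series 1 the median was 1.31 (1.16 to 1.58). With every cell thinned to 286313 reads, which left out 30 shallower cells, 51 of 264 cells were S-gene-rich (19.3%, 14.7 to 24.6%). Series 1 then had 10 of 51 (19.6%), and 7 of its 58 cells were among those left out. Before thinning, its S-gene-rich cells had a median of 402084 reads and its other cells 1699801. The part of the left-out cells in the lower share was not tested.

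**Figure D1:**
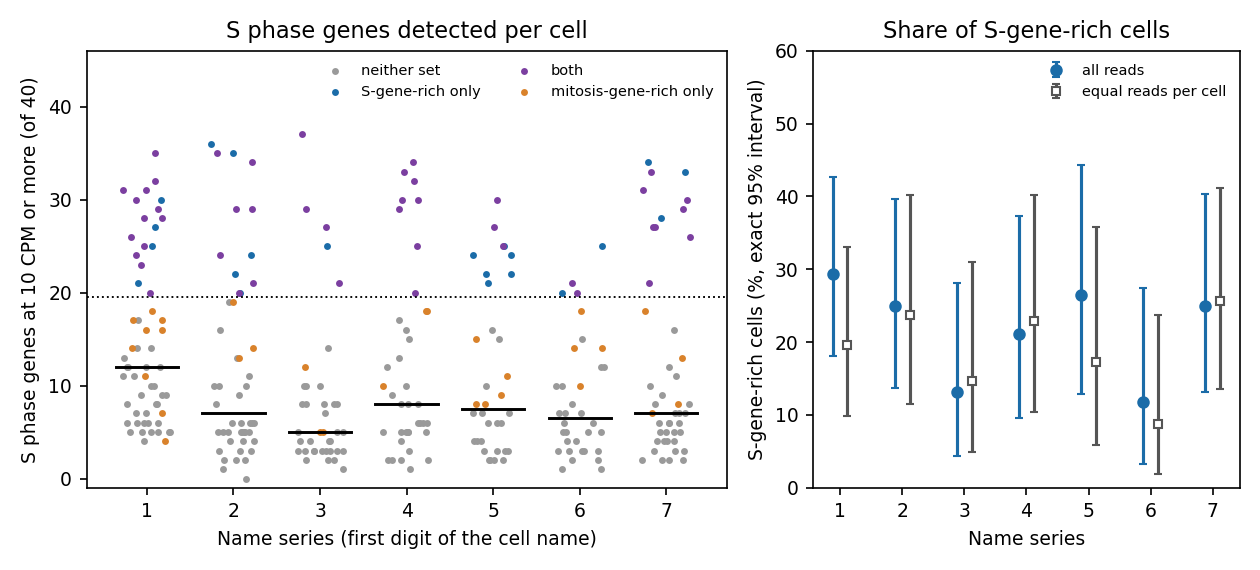
Left, the number of the 40 S phase genes at 10 CPM or more (vertical axis) in each cell, by name series, coloured by class, with a bar at the series median and a dotted line at the limit of 20 genes. Right, the percentage of S-gene-rich cells per series with exact 95% intervals, from all reads and at 286313 reads per cell: shares from all reads lie between 11.8% and 29.3%, and every series holds cells on both sides of the line.

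Series 1 differed from the others mainly at low levels. At 1 read or more, a gene of the set was found on average in 78.1% of the series 1 cells and in 24.3 to 39.8% of those of the other series. At 10 CPM these figures were 37.2% and 20.9 to 30.6%, and at 100 CPM 16.5% and 14 to 20.4%, so that series 1 lay inside the range of the others. In all, 5 of the 40 genes had a read in every series 1 cell, and none (0 of 40) had one in every cell of any other series. In mean CPM, with 10 CPM added, 0 of 37 genes were at 2 times or more in series 1 against the rest, beside 3.28% of all genes tested, and 0 of 37 were at 1/2 or less, beside 9.01%. Their median log2 ratio of series 1 to the others was -0.33, against -0.18 over all 8853 genes. The S-gene-rich cells of series 1 had a median of 402084 reads and its other cells 1699801. In series 2 and 5 the S-gene-rich cells also had the lower median, and in series 3, 4, 6 and 7 the higher one.

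Genes of the set moved together across cells. For each gene, its log2(CPM + 1) was correlated with the S score of the other members across the cells of each series (Spearman), and a gene was called where the median over the 7 series was 0.3 or more and every series lay above 0. Of the 37 genes found in at least 10% of cells, 32 were called, against 363 of 8853 genes in all, or 4.1%. The median over the 37 was 0.50 and over all genes 0.11. The points share a library and its depth: the S score followed the number of genes detected in a cell at 0.16 to 0.83 (median 0.61), and total reads at -0.24 to 0.37. With the number of genes held fixed, 28 of 37 were called, beside 1.52% of all genes, and 26 of these were among the 32. Over the 780 pairs of members the median correlation was 0.32. The closest pair was Gmnn with Clspn at 0.65, and the farthest Ubr7 with Wdr76 at -0.06.

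Clspn, Atad2, Uhrf1, Gmnn and Rrm2 followed the others most closely. Clspn encodes claspin, the adaptor that links stalled forks to the Chk1 kinase, and had a median correlation of 0.66 (0.49 to 0.69 over series). It ranged from 0 to 1098.6 CPM over cells with a median of 0, and was found in 48 of 63 S-gene-rich cells (76.2%) and 9.96% of the others. In these counts, and in all that follow, the gene itself was left out when its cells were classed. Atad2, a bromodomain ATPase bound to newly made chromatin, followed at 0.65, with 57 of 61 (93.4%) and 30.5% of the others. Uhrf1, which recognises hemimethylated DNA and brings in Dnmt1 to restore methylation, was at 0.61, with 53 of 60 (88.3%) and 20.5% of the others. Gmnn encodes geminin, the inhibitor of Cdt1 that blocks a repeat of origin licensing, and stood at 0.60. Rrm2, the small and cell-cycle-limited subunit of ribonucleotide reductase, stood at 0.58. For all 5 the intervals in S-gene-rich and other cells lay far apart, although each was also found in some cells without the rest of the set.

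All 40 genes were found in a larger share of S-gene-rich cells than of the others, with and without series 1, and for 39 of them the intervals did not overlap. Since the class is made from the set itself, this describes how far each gene takes part. The share of all genes that behave so was not computed. S-gene-rich cells had a median of 5843.5 genes detected and the others 4115.5. Of 8853 genes, 7639 had a median correlation with the S score above 0. The mean CPM was 4.62 times higher in S-gene-rich cells for the median gene.

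**Figure D2:**
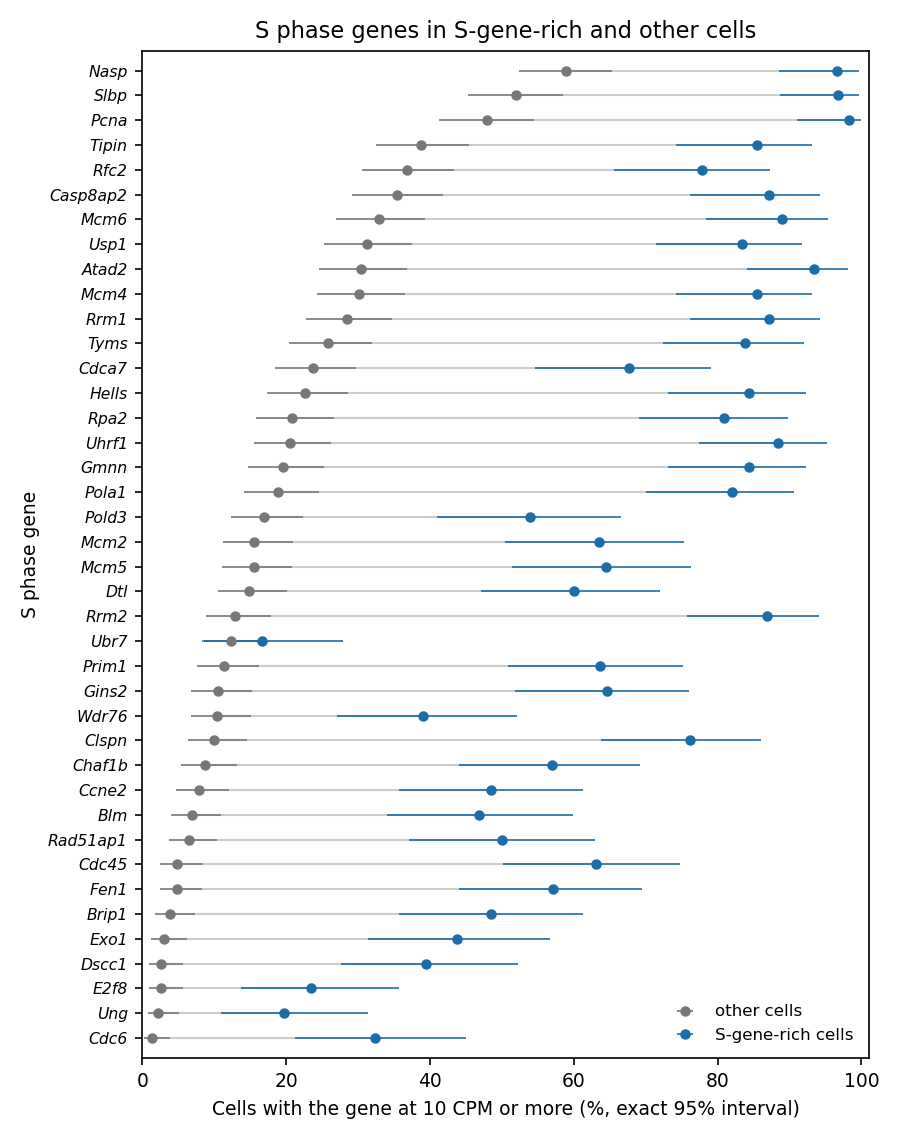
The percentage of cells with each of the 40 genes at 10 CPM or more (horizontal axis, exact 95% intervals) in S-gene-rich cells and in the other cells, the gene itself left out of the class. Nasp, Slbp and Pcna are found in 59%, 51.9% and 47.9% of the other cells and Cdc6 in 1.31%, and the intervals overlap for Ubr7 alone.

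Among the genes that load and start the helicase, Mcm2, Mcm4, Mcm5 and Mcm6 encode subunits of the MCM ring. Mcm6 was found in 56 of 63 S-gene-rich cells (88.9%) and 32.9% of the others, and Mcm4 in 53 of 62 (85.5%) and 30.2% of the others. Mcm2 and Mcm5 were scarcer, in 63.5% and 64.5% of S-gene-rich cells and 15.6% and 15.5% of the others. Per kilobase of exon, the mean in S-gene-rich cells was 76.6 CPM for Mcm6, 70.1 for Mcm4, 55.5 for Mcm5 and 12.7 for Mcm2, although the ring holds 1 of each. The 2 remaining subunits, Mcm3 and Mcm7, are on the list of other replication genes, and both were called (0.44 and 0.52). Cdc6, which loads the ring onto the origin, was the most restricted of all 40 in the other cells: 21 of 65 S-gene-rich cells (32.3%) and 3 of 229 others (1.31%, 0.271 to 3.78%). Cdc45, the helicase activator, was in 41 of 65 (63.1%) and 11 of 229 (4.8%), with a mean of 131.8 against 3.02 CPM. It was not called, since 1 series gave a correlation of 0.00. Gins2, its GINS partner, was in 64.6% and 10.5%, and the geminin gene Gmnn in 84.4% and 19.6%. Gins2 overlaps Gse1 and Cdc45 overlaps Ufd1, and reads in the overlaps cannot be assigned from the table.

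At the fork, Pcna, the clamp that holds the polymerases on DNA, was found in 59 of 60 S-gene-rich cells (98.3%) and 47.9% of the others. It ran from 0 to 1391.4 CPM with a median of 52.5, and per kilobase it was the highest of the 40 in S-gene-rich cells, at a mean of 193.7 CPM against 45.8 in the others. The pseudogenes Pcna-ps1 and Pcna-ps2 may share its reads. Tipin, of the fork protection complex, was next at 186.4 against 69 CPM per kilobase, and was in 85.5% of S-gene-rich and 38.8% of other cells. Pola1 and Prim1, the polymerase alpha and primase subunits that begin each strand, were in 82% and 63.6% of S-gene-rich cells and in 18.9% and 11.4% of the others, and Pola1 was not called because 1 series lay at -0.00. Fen1, the flap nuclease that trims lagging-strand fragments, had the largest ratio of means among the fork genes, 107 against 4.53 CPM, and was in 57.1% and 4.76% of cells. It overlaps Tmem258. Rpa2, of the single-strand binding complex, was in 81% and 20.8%, and Rfc2, of the clamp loader, in 77.8% and 36.8%. Pold3, a polymerase delta subunit, was in 54% and 16.9%, and Dscc1, of the loader used in cohesion, in 39.4% and 2.63%.

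The 3 genes of deoxynucleotide supply were all called, beside 4.1% of all genes, and were similar in reach. Rrm1, the large subunit of ribonucleotide reductase, was found in 54 of 62 S-gene-rich cells (87.1%) and 28.4% of the others. Rrm2 was in 53 of 61 (86.9%) and 12.9% of the others, and Tyms, the thymidylate synthase, in 52 of 62 (83.9%) and 25.9% of the others. The small subunit was thus found in a smaller share of the other cells than the large one, with intervals of 8.86 to 17.9% and 22.7 to 34.7%. Rrm2b, the alternative small subunit used outside S phase and after DNA damage, was found in 10.9% of all cells and was not called (0.07, -0.09 to 0.23 over series).

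Nasp and Slbp, of chromatin and histone supply, were the 2 most widely found genes of the 40. Nasp, a chaperone of histones H3 and H4, was found in 66.7% of all cells, and in 59% (52.4 to 65.3%) of those that were not S-gene-rich. Slbp, which binds the stem-loop of histone mRNA, was in 51.9% (45.3 to 58.5%) of the latter, and Casp8ap2, a factor of histone transcription and processing, in 35.3%. Hells and Cdca7, partners in nucleosome remodelling, were in 84.4% and 67.7% of S-gene-rich cells and 22.6% and 23.7% of the others. Chaf1b, of the chromatin assembly factor, was in 56.9% and 8.73%, and was not called because 1 series lay at -0.07. Ubr7 and Wdr76 departed from the set. Ubr7, a histone H2B ubiquitin ligase, was found in 11 of 66 S-gene-rich cells (16.7%, 8.62 to 27.9%) and 28 of 228 others (12.3%, 8.32 to 17.3%), and its mean was lower in the former, at 16.7 against 28.6 CPM. Its correlation was 0.14 (-0.06 to 0.32 over series), near the median of all genes. Wdr76, a DNA-binding WD40 protein, was in 39.1% and 10.4%, with a correlation of 0.25 (0.12 to 0.66).

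Repair genes were scarce outside S-gene-rich cells. Exo1, the 5′ to 3′ exonuclease of mismatch repair, was found in 28 of 64 S-gene-rich cells (43.8%) and 7 of 230 others (3.04%). Brip1, a helicase partner of Brca1, was in 48.4% and 3.91%, Rad51ap1, a factor of homologous recombination, in 50% and 6.47%, and the RecQ helicase gene Blm in 46.8% and 6.9%. Usp1, the deubiquitinase of PCNA and Fancd2, was the exception, with 83.3% and 31.2%. Ung, the uracil-DNA glycosylase, was the least found of the 40, in 18 of 294 cells (6.12%, 3.67 to 9.5%). Among the cell cycle regulators, Dtl, the adaptor that directs Cdt1 for destruction in S phase, was in 60% and 14.8%, and Ccne2, a cyclin E of S phase entry, in 48.4% and 7.83%. E2f8, a repressor of E2F targets, was in 23.4% and 2.61%. Ung, E2f8 and Cdc6 were each under 10% of all cells and so were left out of the calls, with correlations of 0.32, 0.35 and 0.39.

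The remaining replication genes, taken as a fixed list of 89, were called in part. Of 75 tested, 48 were called, beside 4.1% of all genes, with a median correlation of 0.38. Of the origin recognition complex, Orc6 was called (0.44), and Orc2, Orc3, Orc4 and Orc5, at 0.37, 0.19, 0.12 and 0.15, were not. Cdc7 (0.54) and Dbf4 (0.43), the kinase that fires origins and its activator, were called. So were the catalytic subunits Pold1 (0.38) and Pole (0.30) of polymerases delta and epsilon, while of their smaller subunits Pold3, a member of the set, was called (0.45) and Pold2, Pold4, Pole2, Pole3 and Pole4 (0.02 to 0.28) were not. The PCNA-bound factor gene listed as 2810417H13Rik was at 0.65, Tk1 of nucleotide supply was at 0.59, and Lig1, the ligase of lagging-strand fragments, was at 0.54. Dnmt1, the methyltransferase brought in by Uhrf1, was at 0.54. With the number of genes detected held fixed, 22 of the 75 were called, beside 1.52% of all genes.

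Among the genes outside the set that followed it most closely were 2810417H13Rik (0.65), Ncapg2 (0.63), Top2a (0.62), Cdk1 (0.62), Diap3 (0.60), Tk1 (0.59), Fam111a (0.59), Cdca8 (0.58) and Hist1h2ad (0.57). Several act in mitosis: Ncapg2 is a condensin subunit, Top2a untangles sister chromatids, Cdk1 drives mitotic entry and Cdca8 is part of the chromosomal passenger complex. The 5 with the lowest correlation and 1 sign in every series were Rps18 (-0.24), Prex2 (-0.21), Kdm7a (-0.21), Ptn (-0.20) and Rpl17 (-0.20). Weak correlations of this size in sparse counts are given as values only.

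**Figure D3:**
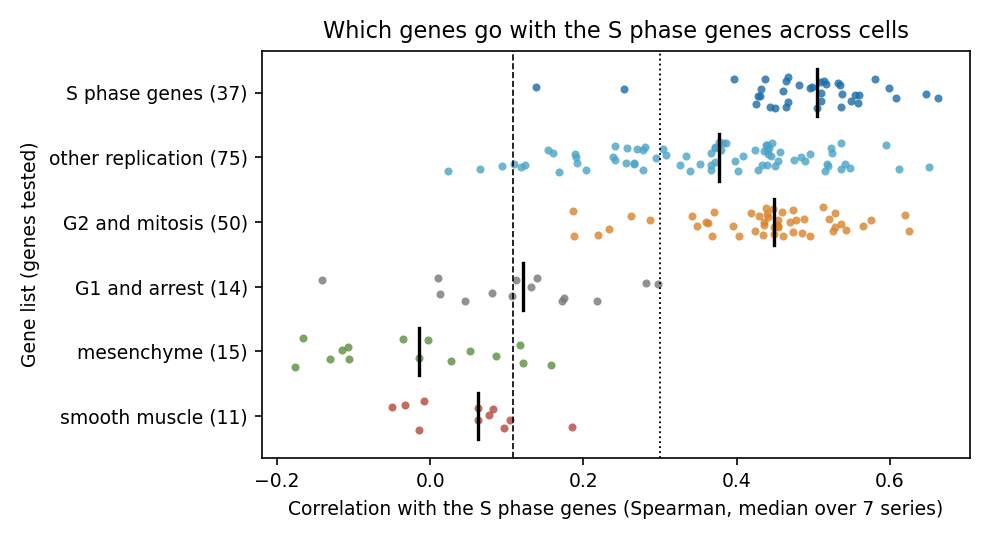
The Spearman correlation of each tested gene with the S score (horizontal axis, median over 7 series), by gene list, with the list median as a bar, the median of all 8853 genes (0.11) dashed and the limit of 0.3 dotted. The S phase genes centre on 0.50 and the G2 and mitosis genes on 0.45, and none of the mesenchyme or smooth muscle genes reaches the limit.

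S phase and mitosis transcripts were often found in the same cells. Of the 54 genes in the list of G2 and mitosis, 43 of 50 tested were called with the S phase set, beside 4.1% of all genes. With the number of genes detected held fixed, the count for this list was not computed. The mean log2(CPM + 1) of these 54 genes correlated with the S score at 0.52 to 0.78 over the 7 series, with a median of 0.69, between 2 scores from the same libraries. A cell with 27 or more of the 54 at 10 CPM was called mitosis-gene-rich, and 45 of the 66 S-gene-rich cells (68.2%, 55.6 to 79.1%) were so as well. This left 21 cells rich in S phase genes only, 45 rich in both, 31 rich in mitosis genes only and 197 in neither. Their median number of S phase genes was 25, 29, 13 and 5. The median number of genes detected was 4747 in the S phase only cells, 6011 in those with both, 4888 in those with mitosis genes only and 3936 in the rest, and the part of this difference in the counts was not tested. By name series, series 4 had 8 cells with both and 0 with S phase genes only, while series 5 had 3 and 6.

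**Figure D4:**
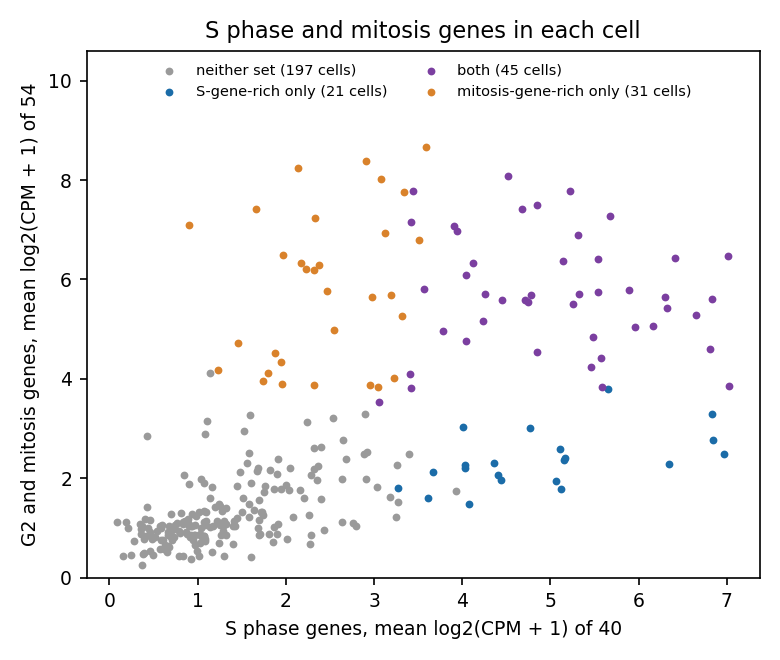
The mean log2(CPM + 1) of the 40 S phase genes (horizontal axis) against that of the 54 G2 and mitosis genes (vertical axis), 1 point per cell, coloured by class. The 197 cells low in both gather at the lower left, and the 21, 45 and 31 cells of the other classes spread over the remaining 3 corners.

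Within the set, some genes leaned to the cells with S phase genes only. Mcm5 was found in 89.5% (66.9 to 98.7%) of these and in 53.5% (37.7 to 68.8%) of the cells with both. Ung was in 9 of 21 (42.9%, 21.8 to 66%) and 4 of 45 (8.89%, 2.48 to 21.2%), and in 0 of 31 cells with mitosis genes only (up to 11.2%). Rfc2, Cdca7, Hells, Chaf1b and Cdc6 were also more frequent in the S phase only cells, by 24.3, 23.7, 22.2, 21.4 and 18.3 percentage points. The S phase only cells had medians of 4747 genes detected and 1430454 reads, and those with both had 6011 and 1076573. The part of these differences in the gaps was not tested. Without series 1, the gap of Rfc2 was 12.7 points, Hells 15.6, Chaf1b 16.3 and Cdc6 15.6. Mcm5 was then in 86.7% and 66.7%, Ung in 47.1% and 12.5%, Cdca7 in 80% and 48.4%, and Ccne2, at 52.6% and 46.7% over all cells, in 53.3% and 34.4%.

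Others leaned to the cells with both. Tyms was in 12 of 20 (60%, 36.1 to 80.9%) cells with S phase genes only and in 40 of 42 (95.2%, 83.8 to 99.4%) with both. It was also in 25 of 34 cells (73.5%) with mitosis genes only and in 17.7% of those with neither. Tipin, Pola1, Rrm1 and Rrm2 were lower by 28.5, 25.2, 25.2 and 25.1 points in the cells with S phase genes only. In all, 12 genes were more frequent in the S phase only cells and 27 less frequent, or 16 and 23 without series 1, and 31 of 40 kept their direction. The intervals did not overlap for 2 genes, Tyms and Ung. The cells with S phase genes only had a median of 4747 genes detected and those with both 6011. Shares over all genes were not computed for these counts. The cells with mitosis genes only still held much of the set: Nasp was in 82.9% of them, Slbp in 68.6%, Atad2 in 64.7% and Uhrf1 in 62.9%, while Cdc6, like Ung, was in 0 of 31 (up to 11.2%) and Ccne2 in 3.23%. Compared with cells rich in neither, 36 of the 40 genes were more frequent there. Cells with mitosis genes only had a median of 4888 genes detected and those rich in neither 3936. The share of all genes more frequent there was not computed.

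**Figure D5:**
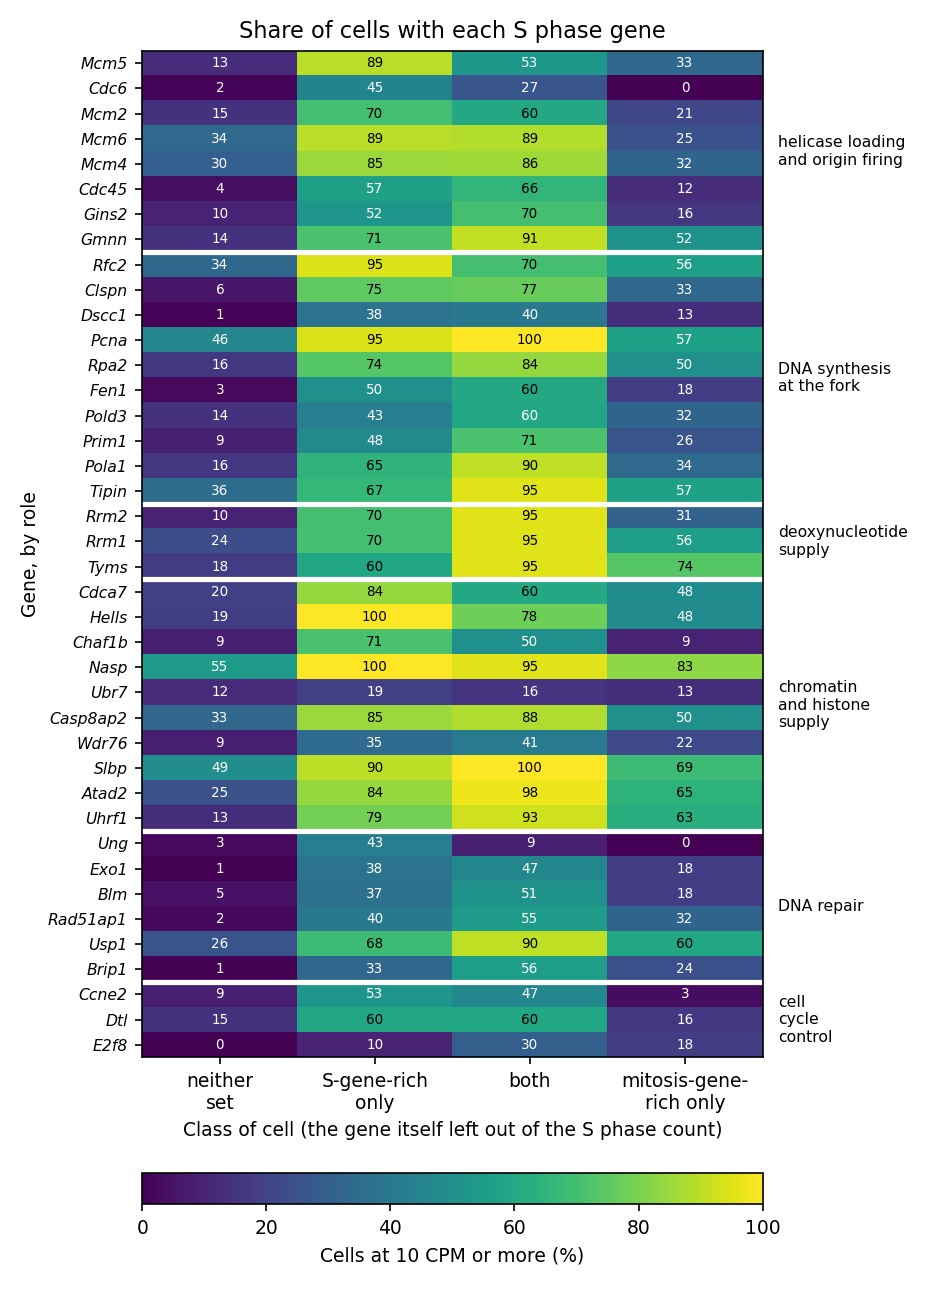
The percentage of cells with each gene at 10 CPM or more (colour and number) in the 4 classes of cell, genes ordered by role and then by the difference between the S phase only cells and those with both. Mcm5 (89.5% and 53.5%) and Ung (42.9% and 8.89%) fall from the former to the latter, and Tyms rises from 60% to 95.2%.

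The genes that differed most between name series were Slbp, Cdca7, Tipin, Pcna and Atad2. Slbp was found in 89.7% of the cells of series 1, and in 38.2 to 65.8% of those of series 2 to 7. Cdca7 was in 60.3% and in 10.5 to 44.7%, Tipin in 72.4% and in 23.5 to 55.3%, Pcna in 84.5% and in 38.2 to 64.6%, and Atad2 in 63.8% and in 28.9 to 45.8%. Series 1 was thus the highest for each of the 5, and it was the highest for 22 of the 40 genes. Its cells had a median of 7718 genes detected, against 4009.5 in the other series. The share of all genes highest in series 1 was not computed. In mean CPM, with 10 CPM added, the median log2 ratio of series 1 to the others was -0.33 over 37 genes of the set, against -0.18 over all genes tested. Clspn was highest in series 5, in 44.1% of its cells, against 17.2% in series 1.

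No lineage gene that was tested was called with the S phase genes. None (0) of the 15 mesenchyme genes and none (0) of the 11 smooth muscle genes was called, beside 363 of 8853 genes in all (4.1%). Lists this short can hold 0 called genes at that share. Their medians were -0.01 and 0.06, against 0.11 over all genes. Postn was found in 65 of 66 S-gene-rich cells, Col1a1 in 64 and Sox9 in 55, against 64.7, 64.2 and 56.2 that the series' shares would give. The summed mesenchyme genes had a median of 14751 CPM in S-gene-rich cells (2170.8 to 56751) and 19111 in the others (2647.3 to 101853.9). For smooth muscle the medians were 2707.1 and 1774.4 CPM. Acta2, the smooth muscle actin, was in 47 S-gene-rich cells against 44.4 from the series' shares. Smtn was in 32 against 23.8, Myl9 in 58 against 51.8 and Tpm2 in 60 against 54.1, and for these 3 of the 11 smooth muscle genes the share of S-gene-rich cells was higher with the gene than without it, with intervals that did not overlap (33.3% and 17.2% for Smtn). Cells with Smtn had a median of 5984 genes detected and those without it 3995. For Myl9 these medians were 4749 and 3670.5, and for Tpm2 4699.5 and 3439. The share of all genes with intervals that do not overlap was not computed. Pdgfrb, a receptor of mesenchymal and mural cells, was in 46 against 35.7, and 29.9% of the cells with it were S-gene-rich (22.8 to 37.8%), against 14.3% (8.95 to 21.2%) of those without. The cells with Pdgfrb had a median of 4813.5 genes detected and those without it 3889, and the part of this in the difference was not tested.

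Some glial genes were found in cells with many S phase genes. Ednrb, an endothelin receptor of crest and glial cells, was in 36 cells, of which 19 were S-gene-rich (52.8%, 35.5 to 69.6%) against 9.63 from the series' shares. Sox10, the glial and crest factor, was in 14 cells, of which 7 were S-gene-rich. These cells had medians of 6998.5 and 6278.5 genes detected, against 4197 and 4327 without the gene, and what the number of genes detected adds here was not tested. Over the 8 glial genes the summed median was 1.05 CPM in S-gene-rich cells and 0 in the others, and the highest sum was in the latter. Of the heart muscle genes, Tnnt2 was in 57 cells, of which 15 were S-gene-rich, against 13.9 from the series' shares. Of the epicardial genes, Tcf21 was in 42 S-gene-rich cells against 30.2 from the series' shares, Tbx18 in 43 against 34.9, and Wt1 in 2 against 3.64. For Tcf21 the intervals with the gene (32.1%, 24.2 to 40.8%) and without it (14.7%, 9.67 to 21.1%) did not overlap. Cells with Tcf21 had a median of 4689 genes detected and those without it 4125, and the part of this in the gap was not tested. Of the endothelial genes, Tek was in 31 S-gene-rich cells against 19.7 from the series' shares. Of the cells with Tek, 35.6% (25.6 to 46.6%) were S-gene-rich, against 16.9% (12.1 to 22.7%) without it. Pecam1 was in 12 against 5.66, Kdr in 6 against 1.66 and Tie1 in 1 against 0.54. Without series 1, 25% of cells with Pecam1 and 20.5% of those without it were S-gene-rich. Cells with Tek had a median of 4674 genes detected and those without it 4205.

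Of the G1 and arrest list, 0 of 14 genes tested were called, beside 4.1% of all genes. Their median was 0.12, against 0.11 over all genes. Cdkn2c, an inhibitor of Cdk4 and Cdk6, was not tested because it was found in 9.52% of cells, and its correlation was 0.33 (lowest series 0.05), with 15 of its 28 cells S-gene-rich. The cyclin D gene Ccnd1 was at 0.28 and Cdkn2d, of the same inhibitor family, at 0.30, just under the limit. Cdkn2d was found in 41 of the 66 S-gene-rich cells, against 23.1 from the series' shares, and 43.2% of the cells with it were S-gene-rich (33 to 53.7%) against 12.6% (8.3 to 18%) of those without. Cdk4, a partner of the D cyclins, was missing in 32 cells, of which 1 was S-gene-rich. Cdkn1c, the inhibitor p57, was found in 38 S-gene-rich cells against 35.1, and Btg2, an antiproliferative gene, in 29 against 34.9. The cells with Cdkn2d had a median of 6011 genes detected and those without it 3910.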

How the data were processed

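Read counts per gene were deposited by the authors as 1 table of whole numbers. A second deposited table holds a score, named SCT by the authors, whose whole numbers have near-equal totals per cell and were treated as a rounded, depth-corrected quantity, and it served only as an alternative. HISAT2 2.1.0, featureCounts, Seurat and mm10 are named per the submitters' processing notes, with no role or order. Counts were scaled to CPM over the genes of the table, from 34046 to 3033857 reads per cell. Coordinates and exon lengths come from GENCODE M21 (GRCm38) and promoters from RefSeq (GRCm38.p6). Python 3.11.15 with numpy 2.4.6, pandas 2.3.3 and scipy 1.17.1 was used, and the correlation step was tested on simulated data.

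All cells formed 1 group. Alternatives were other levels, limits and pseudocounts, thinning to equal reads, the score table, leaving out each name series and partial correlation. No doublet caller was run, because each captured cell was photographed, per the labels. No 2 cells had identical values. The members and lists were chosen with earlier results of these data known. Named genes are all 40 members (with most detail for the 5 highest and 5 lowest by correlation, the 5 most found in other cells and the 5 most uneven between series), the 10 highest and 5 lowest other genes by median correlation, and genes of the fixed lists. Some genes that this rule names are not given here. Of the blood list, 0 of 6 genes were found, and blood was not analysed here.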

Additional observations from a re-analysis of the deposited data

How the results depend on the processing

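The share of S-gene-rich cells, 22.4% by the rule used, was 39.5% when a gene counted as found at 1 read, 9.18% at 100 CPM, 31.97% with 1/3 of the genes required and 12.2% with 2/3 required. The median gene of the set was found in 15.6% of the other cells, and in 10.5% at 100 CPM and 11.96% with 1/3 required. The S score had a median of 4.12 with 10 CPM added in place of 1. Leaving out 1 name series at a time gave medians of 1.31 (without series 1) to 1.81. Of the genes found in at least 30% of cells, 17 of 18 were called, beside 3.39% of all genes, the smaller count following from fewer genes tested. For the other changes the cause was not tested. All other alternatives moved these results by less than the spread between name series (for counts of genes, by under 1.5 times), and thinning, the score table and leaving out a series called 31 to 34 members. Holding the number of genes detected fixed, an alternative chosen after seeing the data, called 28 of the members, beside 1.52% of all genes. Only 1 sample, without stage or animal, limits every value to a description of these cells, and at 10 CPM a single read can place a gene in a cell with few reads.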

Other observations

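Histone genes of the clustered families, chosen after their values were seen, are mostly without poly(A) tails, and a poly(A)-primed kit is not meant to capture them. Of 59 in the table, 20 were found in at least 10% of cells. Of these, 14 were called with the S phase genes, beside 363 of 8853 genes in all (4.1%). The count with the number of genes detected held fixed was not computed for them. Hist1h2ad was found in 97% of S-gene-rich cells and 40.4% of the others, with a mean of 264 against 26 CPM, and Hist1h2ah in 93.9% and 35.1%. Near-identical copies share sequence, so their reads are uncertain. Hist1h2bc, found in 29.6% of cells, was in 39.4% of S-gene-rich cells and 26.8% of the others. It was not called (0.27). Its median over all cells was 0 CPM, and its mean was lower in S-gene-rich cells, 22.6 against 180.2 CPM.

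Ribosomal protein genes, also chosen after their values were seen, lay below most genes. Of 76, 16 had a median correlation with the S score above 0, against 7639 of 8853 genes in all, and their median was -0.06. With the number of genes detected held fixed, 43 of 76 lay above 0 and the median was 0.02, against 4811 of 8853 and 0.01 for all genes.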
